A study of Homo sapiens with 4 samples.

Results

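The mature products of miR-143, miR-145, miR-199a, miR-199b and miR-214 were followed in U2OS, a human osteosarcoma cell line with wild-type p53. The members were all assays of the array whose name gives one of these miRNAs, in either arm. The rule found 9 of 737 miRNA assays: hsa-miR-143, hsa-miR-143*, hsa-miR-145, hsa-miR-145*, hsa-miR-199a-5p, hsa-miR-199a-3p, hsa-miR-199b-5p, hsa-miR-214 and hsa-miR-214*, written below without the species prefix. An asterisk marks the arm of the hairpin that was taken, when it was named, to be the minor one. RNA came from 4 samples, 1 per group. The shNS sample was infected with a lentivirus for a control short hairpin RNA, and the shDDX1 sample with one for a short hairpin RNA against DDX1, an RNA helicase of the DEAD-box family. Both were selected with puromycin. The other pair was untreated U2OS and U2OS given neocarzinostatin (NCS), an enediyne that makes DNA double-strand breaks, at 500 ng/ml for 6 h. The series title names the question as whether DDX1 promotes the processing of some primary miRNAs. Since there is 1 sample per group, no difference below has a replicate check and no p-value was computed. The labels do not say how many short hairpin sequences or cultures stand behind a sample.

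These miRNAs mark cells of mesenchymal origin. miR-143 and miR-145 are made from a shared transcript that is abundant in smooth muscle and fibroblasts, and both are often low in tumours. The MIR199A2 hairpin of miR-199a shares the transcript DNM3OS with miR-214. That transcript is switched on in the developing skeleton and other mesenchyme, and miR-214 is known to restrain bone formation by osteoblasts through ATF4. A primary transcript is cut by Drosha to a hairpin and by Dicer to a short duplex, and usually one arm of the duplex is kept. After DNA damage, p53 is known to bind the Drosha complex through the helicase DDX5 and to favour the processing of some primary transcripts, those of miR-143, miR-145 and miR-16-1 among them.

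Mature sequences from the RefSeq table for GRCh38.p14 were matched for 8 of the 9 assays and are shown because the arms of one hairpin and the related miR-199 and miR-214 products behaved differently. Capitals mark the seed, bases 2 to 8, through which a miRNA pairs with its targets. miR-199b-5p is named only.
miR-143 (miR-143-3p): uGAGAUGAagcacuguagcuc
miR-143* (miR-143-5p): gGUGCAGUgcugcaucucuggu
miR-145 (miR-145-5p): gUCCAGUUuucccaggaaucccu
miR-145* (miR-145-3p): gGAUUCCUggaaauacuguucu
miR-199a-5p: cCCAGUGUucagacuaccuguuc
miR-199a-3p: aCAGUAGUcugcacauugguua
miR-214 (miR-214-3p): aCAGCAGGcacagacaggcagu
miR-214* (miR-214-5p): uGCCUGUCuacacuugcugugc

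The 8 sequences have 8 different seeds. The seeds of miR-199a-3p and miR-214 have the same base at 5 of 7 positions. The seed of miR-199a-3p is shared in RefSeq with miR-199b-3p and miR-3129-5p, that of miR-214 with miR-761 and miR-3619-5p, and that of miR-143 with miR-4770 and miR-6088. None of these was matched by name to another assay of the array. The mature sequence of miR-199a-3p is identical to that of miR-199b-3p, so 3 hairpins can feed the miR-199a-3p assay. The miR-199a-5p sequence comes from MIR199A1 and MIR199A2 only. In the hairpins below capitals mark both mature arms, first miR-199a-5p and then miR-199a-3p.
MIR199A1: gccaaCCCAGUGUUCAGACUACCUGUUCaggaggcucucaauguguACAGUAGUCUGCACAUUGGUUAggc
MIR199A2: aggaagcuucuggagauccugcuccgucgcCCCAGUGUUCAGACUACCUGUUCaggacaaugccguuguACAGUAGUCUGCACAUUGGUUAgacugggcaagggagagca

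In GRCh38.p14, MIR143 lies on the plus strand at chr5:149428918-149429023 and MIR145 at chr5:149430646-149430733, separated by 1622 bp and both within the bounds of the non-coding gene CARMN. MIR214 lies on the minus strand at chr1:172138798-172138907 and MIR199A2 at chr1:172144535-172144644, separated by 5627 bp and within the bounds of both DNM3OS and DNM3. MIR199A1 (chr19:10817426-10817496, minus strand) lies within DNM2, and MIR199B (chr9:128244721-128244830, minus strand) within DNM1. DNM1, DNM2 and DNM3 encode dynamins, GTPases of membrane scission. The table gives gene bounds and no exons.

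Each value is the quantification cycle (Ct) of 1 SYBR Green well, and an earlier cycle means more template. The array has 2 plates, panel I and panel II. The 6 assays named without an asterisk are on panel I and the 3 with one are on panel II. A level is the negative of Ct, set for each sample against its mean over the wells that read under Ct 35 throughout. A log2 ratio is a difference of centred levels, called here at 2-fold. From 7 assays present on both panels, a log2 ratio had a technical SD of 0.38 for the knockdown and 0.79 for NCS. The latter was 0.35 without miR-423-5p. Of 740 miRNA wells, between 521 (untreated) and 732 (shNS) were under Ct 35. The panels and the plate columns differed as wholes in both comparisons, so the panel and column values stand beside the results they touch. Wells of water gave a Ct in the shRNA pair, as early as 27.8 in shNS and 27.3 in shDDX1 on panel I and 26.6 and 26.5 on panel II. The panel I members and miR-214* read earlier than that in both samples, and miR-143* and miR-145* read later.

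The origin of the line was looked at through lists of miRNAs typical of other tissues. In shNS, 7 fibroblast-rich miRNAs such as miR-21 and miR-221 read Ct 16.6 to 23.8. The 7 epithelial ones read 27.1 to 30.8, the 6 muscle ones 27.8 to 32.7, the 6 blood ones 25.7 to 28.4, and liver miR-122 read 28.6, beside the earliest panel I water well at 27.8. The 2 neuronal ones read 22.6 for miR-9 and 27.5 for miR-124.

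**Figure D1:**
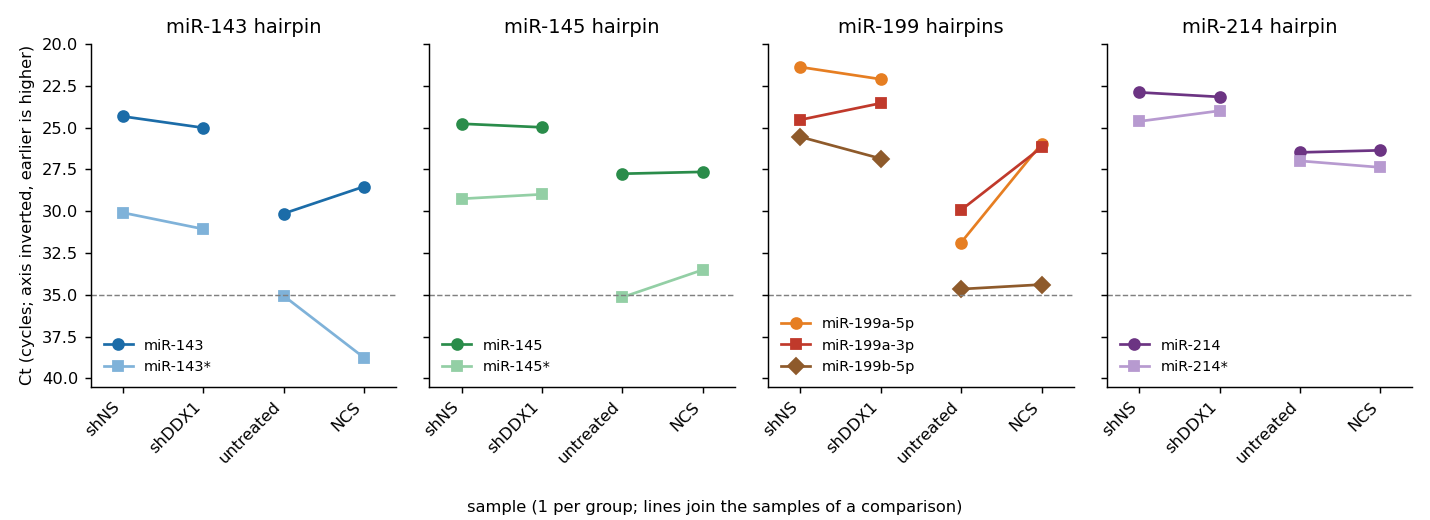
Ct of the 9 assays in the 4 samples, 1 panel per hairpin or hairpin family, with the vertical axis inverted so that more template is higher and the dashed line at the limit of Ct 35. Lines join the samples of a comparison; miR-199a-5p reads 31.9 in untreated and 26.0 in NCS-treated cells, while miR-214 stays at 26.5 and 26.4.

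All 9 assays read earlier in both shRNA samples than in untreated or NCS-treated cells. miR-199a-5p had the earliest reading of the members in shNS, at Ct 21.4, place 52 among the 740 miRNA wells. miR-143* had the latest, at 30.1. In untreated cells miR-214 was the earliest, at 26.5, and miR-143* and miR-145* were the latest, both at 35.1. Such orders between assays are descriptions only, since the efficiency of each primer pair is unknown. Over miRNA wells with a Ct in both, untreated cells read a median of 4.37 cycles later than shNS, so ratios were taken within a pair.

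In shDDX1 cells miR-199a-3p was the 1 member past 2-fold, and miR-199b-5p and miR-214* came close to it on either side. Of 9 quantified assays, 1 was at least 2-fold higher in shDDX1, 0 were at least 2-fold lower and 8 were within 2-fold. At 1.5-fold, or with small RNA references, 4 passed, and 3 lay beyond 2 technical SDs. Among the 716 quantified miRNAs of the array, 11% passed 2-fold upwards and 17.3% downwards, or 28.4% either way. The median log2 ratio of the members was 0.03, and that of all quantified miRNAs 0.04. With these shares the members' count is no larger than the background. In these bulk samples, fewer cells holding a miRNA and less of it per cell cannot be told apart.

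miR-199a-3p, an arm known to target MET and MTOR, read Ct 24.5 in shNS and 23.5 in shDDX1. It was the member that appeared earlier with the knockdown by the widest margin. The log2 ratio was 1.30, or 2.46-fold higher, against the technical SD of 0.38. On panel I, 2.75% of 363 quantified assays passed 2-fold upwards and 29.2% downwards, and 7 assays had a higher ratio than miR-199a-3p. In the middle plate columns, 7 to 18, where its well lies, the median of 185 assays was -0.82 and 2 had a higher ratio. The 21 quantified wells within 2 rows and 2 columns of it had a median of -0.74. The ratio was above 0 in all 8 settings of centring and position, from 0.63 with the small RNAs as reference to 2.03 after subtraction of neighbouring wells, and passed 2-fold in 5 of them.

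The other arm of these hairpins was not higher under the common centring. miR-199a-5p, known to target HIF1A, read Ct 21.4 in shNS and 22.1 in shDDX1, a log2 ratio of -0.42 that lies near 1 technical SD. Between settings it ran from -1.09 with small RNA references to 0.96 after subtraction of neighbouring wells, so its direction is not settled. The gap between the arms within a sample needs no centring, as both wells are on panel I. The wells around miR-199a-3p had a median log2 ratio of -0.74 and those around miR-199a-5p one of -1.38. With neighbouring wells subtracted the arms stood at 2.03 and 0.96, and the part of plate position in their gap was not tested. miR-199a-3p read 3.15 cycles after miR-199a-5p in shNS and 1.44 cycles after it in shDDX1. The gap changed by -1.72 cycles, where the pooled SD of calibrator wells, 0.19 cycles, gives an SD of 0.38 for such a change. That SD comes from 3 calibrator wells per plate and does not cover spread between miRNA assays. The log2 ratio of miR-423-5p in the knockdown differed by -0.91 between its wells, panel I minus panel II.

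miR-199b-5p, the MIR199B counterpart of miR-199a-5p, read Ct 25.6 in shNS and 26.9 in shDDX1. It was 1.99-fold lower, just short of the limit, with a log2 ratio of -0.99. The 14 wells around it had a median of -0.53. All 8 settings put it below 0, and 4 of them past 2-fold, between -1.66 and -0.46. On panel I 106 of 363 assays had a lower ratio. The earliest panel I water well of shDDX1, at 27.3, read close after miR-199b-5p, and the part of background signal in it was not tested.

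miR-214 and its other arm were level or slightly higher. miR-214 read Ct 22.9 in shNS and 23.2 in shDDX1, a log2 ratio of 0.03. The wells around it stood at a median of -1.11, and after their subtraction it was at 1.15, the one setting past 2-fold. Of the 8 settings 4 gave a value above 0. miR-214* read 24.6 and 24.0, a log2 ratio of 0.94 or 1.91-fold higher, and was above 0 in all 8 settings without passing 2-fold in any. Its panel II had a median of 0.46, and with each panel centred separately it was at 0.50. Of the 3 hairpins that can feed the miR-199a-3p assay, only MIR199A2 shares the transcript DNM3OS with miR-214. Both assays lie on the same panel. The lead of miR-214 over miR-199a-3p was 1.64 cycles in shNS and 0.38 in shDDX1.

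miR-143 and miR-145 were close to the control under the common centring. miR-143, known to repress MAPK7, read Ct 24.3 in shNS and 25.0 in shDDX1, a log2 ratio of -0.38. The 14 wells around it had the same median of -0.38, and with each panel centred separately it was at 0.05. With small RNA references it was at -1.04. miR-145, a repressor of the pluripotency factors OCT4, SOX2 and KLF4, read 24.8 and 25.0, with a ratio of 0.09. The uncentred difference for miR-145 of -0.21 is under the SD of 0.27 cycles for a difference between 2 calibrator wells. That SD is taken within a plate and does not cover spread between samples. Within a sample miR-145 trailed miR-143 by 0.44 cycles in shNS and led it by 0.03 in shDDX1.

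The minor arms of these hairpins read later and had ratios of opposite sign under the common centring. miR-143* read Ct 30.1 in shNS and 31.1 in shDDX1, a log2 ratio of -0.67 on a panel whose median was 0.46. Of 350 panel II assays 30 had a lower ratio. It was below 0 in all 8 settings and past 2-fold in 4, at 2.15-fold lower with each panel centred separately. miR-145* read 29.3 and 29.0, with a ratio of 0.57, or 0.13 with each panel centred separately. With small RNA references miR-145* was at -0.10, and it was above 0 in 7 of 8 settings. Both minor arms were later than the earliest water well of that panel, and the part of background signal in them was not tested.

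**Figure D2:**
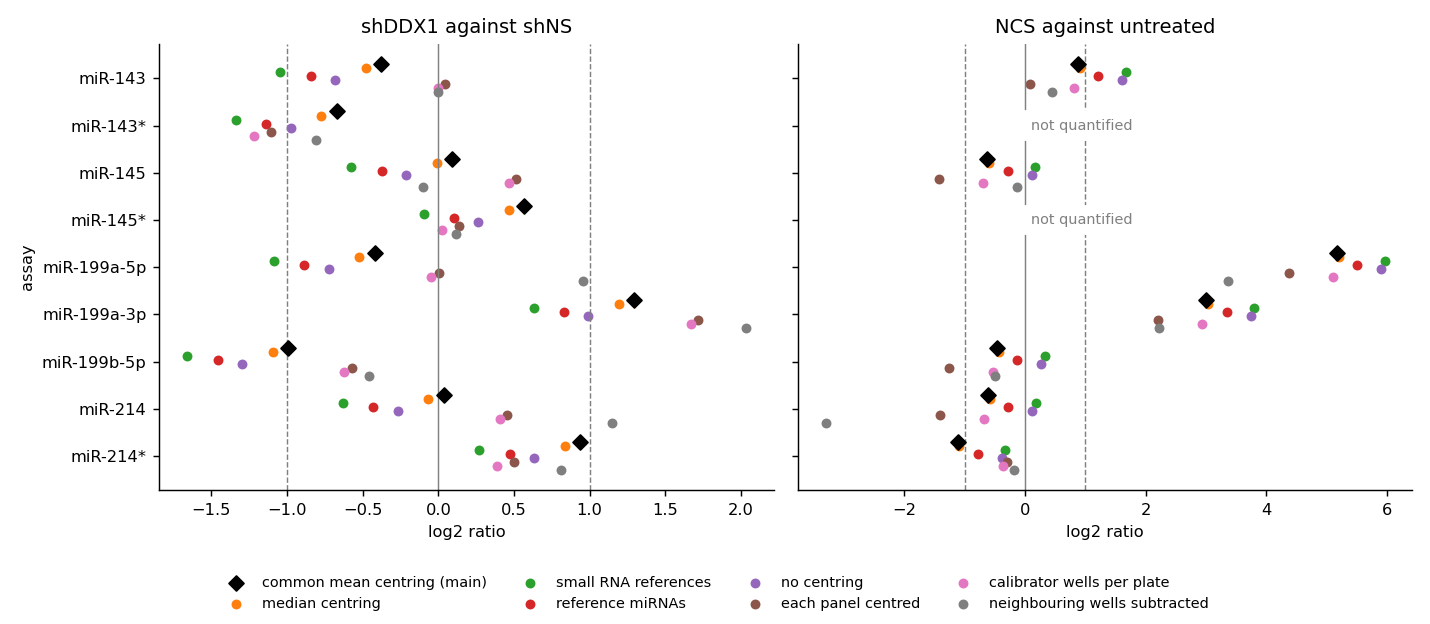
log2 ratio of each assay in the knockdown (left) and NCS (right) comparison under 8 settings; black diamonds are the common centring, coloured points the other settings, and dashed lines 2-fold. After NCS both miR-199a arms lie right of 2-fold in every setting shown, and in the knockdown miR-199a-3p lies right of 0 in every one, though in 3 of the 8 it is within 2-fold.

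After NCS the 2 arms of miR-199a were the members that stood apart. Of the 9 assays 7 were quantified, with 2 at least 2-fold higher, 1 lower and 4 within 2-fold. Among the 498 quantified miRNAs of the array, 16.9% passed 2-fold upwards and 22.3% downwards, or 39.2% either way. The share of quantified members past 2-fold was 42.9%, near that background. The median log2 ratio of the members was -0.46, beside -0.38 over all quantified miRNAs.

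miR-199a-5p read Ct 31.9 in untreated and 26.0 in NCS-treated cells. The log2 ratio was 5.17, or 36.1-fold higher, against a technical SD of 0.79. It was above 2-fold in all 8 settings, from 10.4-fold after subtraction of neighbouring wells to 62.4-fold with small RNA references. miR-199a-3p read 29.9 and 26.2, a log2 ratio of 3.01 or 8.06-fold higher. It too passed 2-fold in all 8 settings, from 4.62-fold with each panel centred separately to 13.9-fold.

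Many assays around these wells were higher as well. On panel I, 30.4% of 250 assays were at least 2-fold higher, and in its middle columns 55.8% of 113, with a median of 1.21. Among those 113 assays 9 had a higher ratio than miR-199a-5p and 23 a higher one than miR-199a-3p. In the knockdown 185 assays of the same columns were quantified. Assays past the Ct limit in untreated or NCS-treated cells are left out of these NCS shares and counts. Assays within the limit only after NCS could stand higher than either arm, and how many do was not tested. The 16 wells around miR-199a-5p had a median of 1.80 and the 13 around miR-199a-3p one of 0.79. In untreated cells miR-199a-5p read 10.5 cycles later than in shNS. Over the 146 wells of the middle columns of panel I with a Ct in both, the median was 5.82 cycles later. Of these wells 21 had a larger gap. Wells without a Ct in untreated cells are not in that count. In NCS-treated cells miR-199a-5p was 4.58 cycles later than in shNS, beside a median of 3.48 over 177 wells of those columns. Whether signal of the miR-199a-5p well was lost in untreated cells was not tested. For miR-199a-3p the untreated gap to shNS was 5.39 cycles, and 79 of the 146 wells had a larger one. Its gap after treatment was 1.65 cycles, beside the same median of 3.48.

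**Figure D3:**
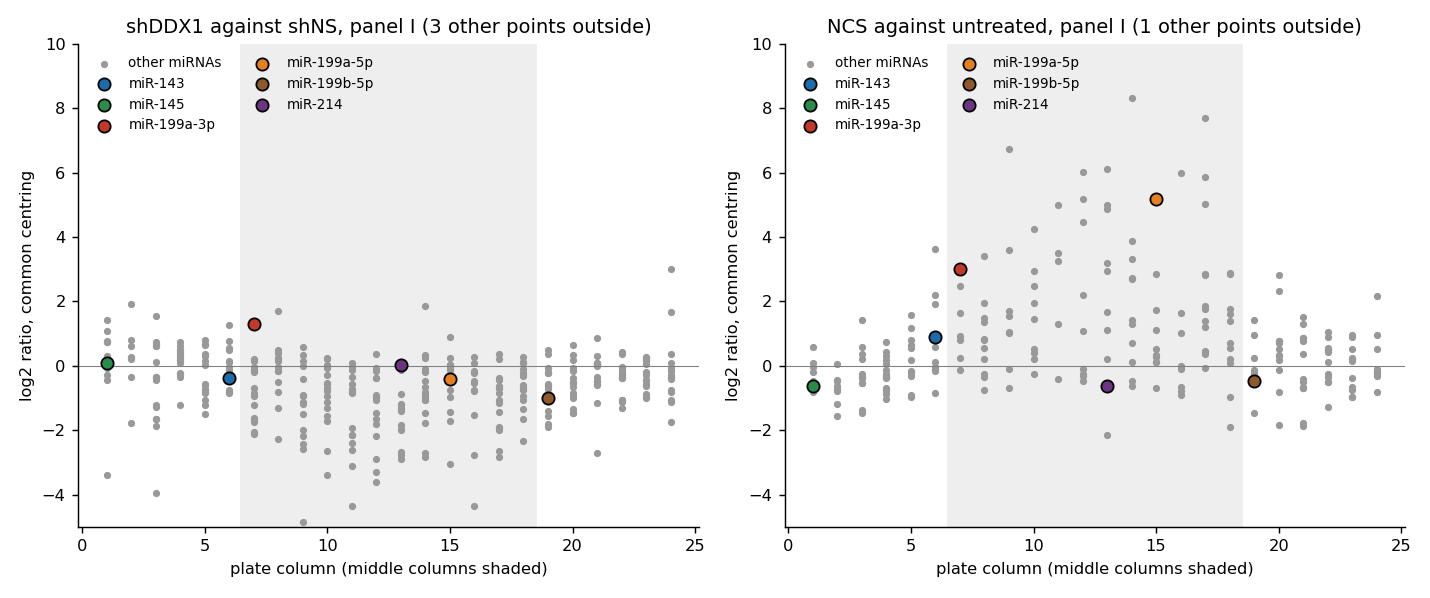
log2 ratio of panel I assays against the plate column of their well for the knockdown (left) and NCS (right), with the middle columns shaded, grey points for other miRNAs and coloured points for the 6 members on this panel. In the shaded columns the median is -0.82 for the knockdown and 1.21 for NCS; miR-214 lies at 0.03 and -0.61, and miR-199a-3p at 1.30 and 3.01.

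miR-214, from the same transcript as miR-199a-2 and also in the middle columns of panel I, did not follow the miR-199a arms. It read Ct 26.5 without NCS and 26.4 with it, an uncentred ratio of 0.12. That is smaller than the SD of 0.27 cycles between calibrator wells, which does not cover spread between samples. The centred log2 ratio was -0.61, and 10 of 113 assays in those columns had a lower one. The 14 wells around miR-214 had a median of 2.70, and with that subtracted it stood at -3.31. With each panel centred separately it was at -1.41. The sign was below 0 in 6 of 8 settings. Within a sample miR-214 led miR-199a-5p by 5.39 cycles without NCS and trailed it by 0.40 with NCS, a change of 5.78 cycles. miR-214* read 27.0 and 27.4, a log2 ratio of -1.12 or 2.17-fold lower. On panel II 40.4% of 245 assays were at least 2-fold lower, with a median of -0.84, and with each panel centred separately miR-214* was at -0.29.

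miR-199b-5p stayed near the limit of reading. Its Ct was 34.7 in untreated and 34.4 in NCS-treated cells, a log2 ratio of -0.46 that lay within the technical SD of 0.79 but not within the 0.35 found without miR-423-5p. With each panel centred separately it was at -1.27, or 2.41-fold lower, and with small RNA references at 0.32, so neither call nor sign held across the 8 settings. The uncentred difference was 0.27, no wider than the SD between calibrator wells. That SD is taken within a plate and does not cover spread between samples. miR-199b-5p trailed miR-199a-5p by 2.78 cycles without NCS and by 8.42 with it, although both descend from related hairpins. The authors' deposited table gives miR-199b-5p a fold of 3.36 after NCS, where the deposited Ct values give 1.20. Their shifted Ct differs from the Ct by -6.62 cycles in the untreated sample and by -8.11 in the treated one for this assay, and by -3.19 to -3.99 for the other 5 panel I members. How these shifts were made is not given in the sources used here. For miR-199a-5p the authors' deposited table gives a fold of 36.0, for miR-199a-3p 13.4 and for miR-214 1.01.

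**Figure D4:**
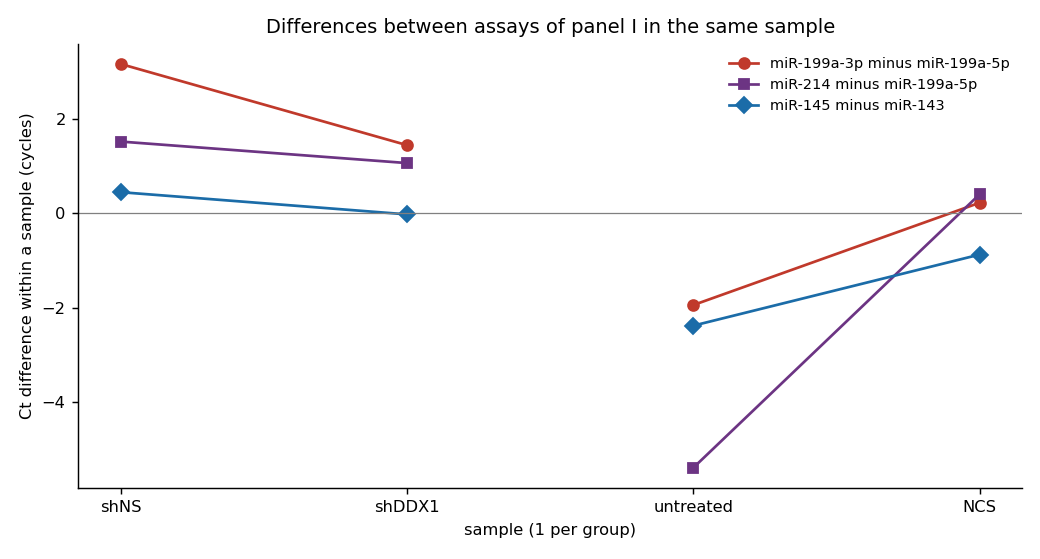
Ct differences between panel I assays of the same sample, which no centring alters, for miR-199a-3p minus miR-199a-5p, miR-214 minus miR-199a-5p and miR-145 minus miR-143; lines join the samples of a comparison and points above 0 mean that the first-named assay read later. The miR-199a arm difference goes from 3.15 to 1.44 cycles with the knockdown and from -1.95 to 0.22 with NCS. Plate position is not adjusted for.

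The arms of miR-199a also changed place. miR-199a-3p read 1.95 cycles before miR-199a-5p in untreated cells and 0.22 cycles after it in NCS-treated cells, a change of 2.16 cycles. In the control shRNA sample it had read 3.15 cycles after miR-199a-5p. Of the 4 samples, the untreated one alone had miR-199a-3p first, though in NCS-treated cells the gap was under the SD of 0.27 cycles between wells. The wells around miR-199a-3p had a median log2 ratio of 0.79 after NCS and those around miR-199a-5p one of 1.80. With neighbouring wells subtracted the arms stood at 2.22 and 3.37, and the part of plate position in their gap was not tested. The log2 ratio of miR-423-5p after NCS differed by 2.71 between its wells, panel I minus panel II, which is wider than the change between the arms.

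miR-143 and miR-145 had ratios of opposite sign after NCS, neither past 2-fold under the common centring. miR-143 read Ct 30.1 in untreated and 28.5 in NCS-treated cells. Its log2 ratio was 0.88, or 1.84-fold higher, and ran from 0.08 with each panel centred separately to 1.67 with small RNA references, past 2-fold in 3 of 8 settings. miR-145 read 27.8 and 27.6, a centred ratio of -0.62 and an uncentred one of 0.11, below the SD between calibrator wells of a plate. With each panel centred separately it was at -1.43. Within a sample miR-145 led miR-143 by 2.38 cycles without NCS and by 0.88 with it.

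The minor arms of miR-143 and miR-145 could not be quantified after NCS. miR-143* read Ct 35.1 in untreated and 38.8 in NCS-treated cells, both past the limit. miR-145* read 35.1 and 33.5, so that only the treated sample was within it. No fold is given for either.

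Beside miR-143 and miR-145, the list of miRNAs with p53-promoted processing holds miR-16, a repressor of BCL2 and cyclins that acts on survival and the cell cycle. Of the 6 names on it 5 were matched to an assay, 4 of them members. miR-16 read Ct 19.7 in shNS against 22.4 in shDDX1, and 28.4 without NCS against 22.7 with it. Its log2 ratios were -2.41 and 4.98, and -0.78 and 1.74 after subtraction of neighbouring wells. In the knockdown 1 of 5 assays was at least 2-fold lower and 0 higher, with a median of -0.38. After NCS 1 of 3 passed it upwards and 0 downwards, around a median of 0.88. Under the common centring the call in both comparisons is that of miR-16, beside 17.3% of all miRNAs lower in the knockdown and 16.9% higher after NCS. Subtraction of neighbouring wells ends that call in the knockdown. With each panel centred separately 2 were lower in the knockdown, with miR-143* at -1.11, and after NCS 1 was higher and 1 lower, with miR-145 at -1.43.

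Other miRNAs of bone and cartilage differed among themselves. Of 13 quantified in the knockdown, 2 passed 2-fold upwards and 2 downwards around a median of -0.26, from miR-211 at a log2 ratio of -2.12 to miR-29b, which targets collagens, at 1.86. After NCS 4 of 12 passed it upwards and 1 downwards around a median of 0.23, from miR-31 at -1.46 to miR-138 at 4.99. With each panel centred separately 4 were higher and 4 lower, and in the knockdown 2 and 2 as before. The fibroblast-rich list had 0 of 7 past 2-fold in the knockdown, from miR-221 at -0.57 to miR-22 at 0.61. After NCS 2 were higher and 1 lower, from miR-100 at -1.87 to miR-21, an oncogenic miRNA of many tumours, at 2.95. With each panel centred separately 1 was higher in the knockdown, and 2 were higher and 3 lower after NCS. The shares of all miRNAs past 2-fold, 28.4% and 39.2%, stand beside these counts.

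The lists of other tissues are given by their ends and their counts at 2-fold. All their assays but miR-208a, on panel II, are on panel I. In the knockdown 29.2% of that panel was lower and 2.75% higher. After NCS 30.4% was higher and 4.8% lower. In the knockdown the epithelial miRNAs ran from miR-200b at -2.63 to miR-205 at -0.55, all 7 below 0, with 6 of 7 at least 2-fold lower. Centred per panel, 3 were. With neighbouring wells subtracted, all but miR-203 at -0.92 and miR-205 at 0.02 were. The muscle ones ran from miR-499-5p at -1.71 to miR-208a at -0.05, with 2 of 6 lower. Those of blood ran from miR-142-3p at -1.07 to miR-144 at 1.54, with 1 lower and 1 higher of 6. miR-9 was at -0.60, miR-124 at -0.18 and miR-122 at -1.21. After NCS the epithelial ones ran from miR-205 at 0.76 to miR-200b at 2.49, with 6 of 7 at least 2-fold higher. Centred per panel, 1 was, and their median was 0.77. With neighbouring wells subtracted, all but miR-200a at 0.75 and miR-205 at 0.37 were. Of the muscle list miR-133a alone was quantified, at 0.90. The 5 quantified blood miRNAs ran from miR-451 at -1.83 to miR-142-3p at 2.84, with 1 at least 2-fold higher and 2 lower. miR-124 was at 0.21, miR-9 at 1.43 and miR-122 at -1.36. The part of other cell types or of plate position in the members' values was not tested.

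Patterns over the 4 samples were compared for the 7 members read under Ct 35 in each. Likeness was the Euclidean distance, in log2 units, between levels centred on their own mean, against 495 other assays. The nearest to miR-214* were miR-455-3p at 0.06, miR-29a* at 0.10 and miR-125b-2* at 0.18. Those to miR-145 were miR-519e at 0.12, miR-126* at 0.16 and miR-342-3p at 0.17. Those to miR-143 were miR-519d at 0.15, miR-675b at 0.31 and miR-34c-3p at 0.37. For miR-214 they were miR-621 at 0.19, miR-193b at 0.22 and miR-103-2* at 0.22.

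The miR-199 products had no such close company. The nearest to miR-199a-3p were miR-34b at 0.88, miR-362-5p at 1.10 and miR-34c-5p at 1.18. Those to miR-199a-5p were miR-425 at 1.03, miR-96 at 1.41 and miR-32 at 1.46. Those to miR-199b-5p were miR-665 at 1.07, miR-891b at 1.10 and miR-373* at 1.31. The 3 nearest to miR-199a-3p all lie in column 6 of panel I, next to its own column 7. The 3 nearest to miR-199a-5p lie in the middle columns of panel I, as its own well does. The part of plate position in these distances was not tested. No member was among the nearest 3 of another. The closest pair of members was miR-145 and miR-214, at 0.57, from different transcripts. For miR-199a-5p the nearest member was its other arm at 3.71, in place 45.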

How the data were processed

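MicroRNA was measured by quantitative PCR in 4 U2OS samples on 2 plates of 384 wells. The authors deposited 3 tables: Ct per well, shifted Ct, and a linear fold against the control of each pair. Per the labels, RNA was extracted with Trizol and reverse transcribed with an Exiqon kit. The sources used here do not give the instrument or threshold. Values were computed from the Ct table. Each sample was centred on its mean Ct over 499 of 740 miRNA wells under Ct 35 in all 4 samples, wells repeated across panels were averaged, and 1 cycle was taken as 1 doubling. Assays with bracketed names and non-miRNA wells were left out. Replicate spread cannot be had from 1 sample per group; the technical SD comes from repeated wells. Scripts ran in Python 3.11.15 with numpy 2.4.6 and pandas 2.3.3 and were tested on simulated data. The assays named are all members, the 3 nearest in pattern to each member, and the ends of each list. Members, lists and alternatives were chosen with earlier results of these data known. The middle columns were also defined that way.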

Additional observations from a re-analysis of the deposited data

Results flagged for a closer look

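Wells of water, which lie outside the miRNA measurement, gave a Ct in the shRNA pair. Of 9 such wells per sample, the number was 6 in shNS and 7 in shDDX1, and 0 in both samples of the NCS pair. Among the members this touches miR-143* and miR-145*, which read Ct 29.0 to 31.1 in that pair on panel II, where the earliest water well read 26.6 and 26.5. On panel I miR-199b-5p came near it, at 26.9 in shDDX1 beside a water well at 27.3. The source of the water signal was not tested.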

How the results depend on the processing

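No paired analysis was possible because a single sample stands for every group. In the knockdown, 1 of 9 members passed 2-fold. The count was 2 with median centring, reference miRNAs, each panel centred separately, calibrator wells or neighbouring wells subtracted, 4 with small RNA references or at 1.5-fold, and 0 at 4-fold. Their median of 0.03 was -0.63 with small RNA references and -0.43 with reference miRNAs, which shift all assays alike. After NCS, 3 of 7 passed 2-fold. The count was 5 with each panel centred separately and 6 at 1.5-fold, 4 with no Ct limit and in both of the authors' deposited tables, and 2 with calibrator wells, without the passenger arms and at 4-fold. The median of -0.46 was 1.18 in each of the authors' deposited normalized and fold tables. Its sign also turned with small RNA references (0.32), no centring (0.27), a limit of Ct 37 (0.21) or Ct 32 (0.14) and without the passenger arms (0.21), so the direction of this median is not settled. Of 108 single-member values under an alternative in the knockdown, 73 lay within the technical SD of 0.38 of the reported one. After NCS, 69 of 83 did, with the SD of 0.79 that includes miR-423-5p. Both tallies hold values that could not move, as the Ct limits leave the ratio of a quantified member unchanged. They also count the authors' normalized and fold tables separately, though these give the same ratios, in the knockdown those of no centring. The tallies are therefore no measure of stability. No member past 2-fold changed sign. Members within 2-fold did, among them miR-145, miR-199b-5p and miR-214 after NCS, at 0.17, 0.32 and 0.18 with small RNA references. miR-199b-5p after NCS, at Ct 34.4 to 34.7, is close to the limit of reading.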
